A study of Homo sapiens with 9 samples.

Results

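Hep3B cells transfected with either of 2 siRNAs were compared with untreated Hep3B cells, to describe the response that these siRNAs had in common. All 9 arrays of the series entered: 6 transfected arrays, of which 3 had received a nonsense siRNA and 3 an siRNA against YAP, and 3 untreated arrays. Hep3B is an established human hepatocellular carcinoma line. The members were all 18417 genes with a probe set assigned to 1 gene (19460 of 33297 probe sets), and the mean of both siRNA groups, with equal weight for each, was set against the untreated mean. Every array held total RNA hybridised to an Affymetrix human gene array, and the values were log2 signals. Cells of every group had been grown for 24 h, and the transfected cells were lysed 24 h after transfection with Oligofectamine, a cationic lipid. No group received the lipid without an siRNA, so the lipid, the RNA duplex and the handling of the cells cannot be told apart. No time of lysis is given here for the untreated cells, so any difference in culture time cannot be told apart from these either. Titles of the samples carry the prefix HUH, but their cell line entry reads Hep3B, and the latter was used. Whether replicates are separate cultures is not stated in the labels, so p-values measure only the spread between samples, which may be technical, and precision is limited by having 3 arrays per group.

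A small interfering RNA is loaded into an Argonaute protein, which with its TNRC6 partners silences matching transcripts, and through short seed matches it can also lower transcripts it was not designed for. Cationic lipid reagents carry the duplex into the cell through endosomes. Metallothioneins are small cysteine-rich proteins that bind zinc and copper. Their genes lie in a cluster on human chromosome 16 and are switched on by MTF1, a zinc-sensing transcription factor that binds metal response elements in their promoters. SLC30A1, which encodes the zinc exporter of the plasma membrane, is a target of the same factor.

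Of the 4 genes that rose by at least 0.5 on the log2 scale in transfected cells, 3 were metallothioneins. The promoters of 3 zinc-responsive genes are printed to show the element known from such genes. Of these, MT2A and SLC30A1 passed the comparison and MT1X did not. Promoters of MT1M, MT1G and MT1F, which also passed, were not analysed here. Each is the stretch of 250 bases before the gene start in RefSeq (GRCh38.p14), 5′ to 3′ on the strand of the gene. Capitals mark the core of the metal response element, searched as TGCACNC and TGCGCNC on both strands, so a core on the opposite strand appears as GNGTGCA or GNGCGCA. MT2A, whose promoter is at chr16:56608334-56608583 on the plus strand, held 7 such cores. SLC30A1, at chr1:211579162-211579411 on the minus strand, held 1. MT1X, at chr16:56682220-56682469 on the plus strand, held 4.
MT2A: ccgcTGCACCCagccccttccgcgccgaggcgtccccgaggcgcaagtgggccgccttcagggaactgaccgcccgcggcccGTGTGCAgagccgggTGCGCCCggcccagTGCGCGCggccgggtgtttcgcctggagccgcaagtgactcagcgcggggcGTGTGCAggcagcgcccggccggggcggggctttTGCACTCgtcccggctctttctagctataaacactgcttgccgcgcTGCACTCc
SLC30A1: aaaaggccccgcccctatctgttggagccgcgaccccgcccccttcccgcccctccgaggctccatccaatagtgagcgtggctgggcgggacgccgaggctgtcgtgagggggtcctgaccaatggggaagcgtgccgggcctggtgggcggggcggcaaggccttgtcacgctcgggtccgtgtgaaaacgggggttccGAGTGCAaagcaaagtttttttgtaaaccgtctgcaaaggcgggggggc
MT1X: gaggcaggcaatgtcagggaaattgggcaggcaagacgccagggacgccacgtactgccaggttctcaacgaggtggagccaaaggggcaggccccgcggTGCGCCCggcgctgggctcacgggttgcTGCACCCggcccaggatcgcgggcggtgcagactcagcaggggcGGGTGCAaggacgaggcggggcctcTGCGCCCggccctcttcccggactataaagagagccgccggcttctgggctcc

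Of 35116 promoters of this length, 24.8% held at least 1 core, 1.58% at least 3, 0.370% at least 4 and 0.0313% at least 7. Promoter entries matched 8 of the 12 measured metallothionein and zinc genes. MT1H held 8 cores and MT1B held 3, while the promoter windows of MTF1, SLC30A10 and the zinc importer gene SLC39A10 held 0. A match describes the letters of the window and is not evidence of binding. Among all genes that passed the comparison, 6 of 109 risen genes with an entry held at least 3 cores, and 0 of 55 fallen genes did. These counts take the entry with the most cores of each gene, whereas the shares above are per promoter. The 2 are unlike measures, and enrichment was not tested.

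Several metallothionein transcripts and that of the zinc exporter gene SLC30A1 were higher in transfected than in untreated cells. A gene passed when limma's moderated test gave a Benjamini-Hochberg adjusted p under 0.05 over all 18417 genes. Of 12 measured members of the zinc list, 5 rose and 0 fell, where 0.7% of all genes rose and 0.391% fell. The list was chosen with earlier results of these data known, and its metallothionein copies are close in sequence. These shares are therefore not a test of the list. The risen members were MT1M, MT1G, MT2A, MT1F and SLC30A1, and in each of them all 6 transfected arrays lay above all 3 untreated arrays. That order was found in 3.01% of all genes but in 108 of the 129 that rose, since passing the test favours it. The median difference over the 12 members was 0.29 on the log2 scale, against -0.02 over all genes. The differences between the siRNAs passed in 0 of the 12 members by limma, where 4.53% of all genes passed that test. With so few members, this does not show that the siRNAs acted alike on them.

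MT1M had log2 signals of 8.34, 8.26 and 8.78 on the untreated arrays, 9.27, 9.06 and 9.56 after nonsense siRNA, and 9.46, 9.27 and 9.25 after YAP siRNA. Every transfected array lay above every untreated one, while the siRNA groups overlapped, and MT1M rose by 0.85 (SE 0.109, adjusted p = 0.00295), a 1.80-fold difference and the largest of any gene that passed. MT1G had signals of 11.09, 11.10 and 11.53 on the untreated arrays, 11.80, 11.75 and 11.84 after nonsense siRNA, and 11.99, 11.90 and 12.08 after YAP siRNA. It rose by 0.65 (SE 0.0800, adjusted p = 0.00214), or 1.57-fold. MT2A, the most widely expressed metallothionein gene, had signals of 11.48, 11.54 and 11.93 on the untreated arrays, 12.09, 12.06 and 12.09 after nonsense siRNA, and 12.26, 12.21 and 12.34 after YAP siRNA. It rose by 0.52 (SE 0.0773, adjusted p = 0.00638), or 1.44-fold. In all 3 genes untreated replicate 3 was the highest untreated array and stood closest to the transfected ones.

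MT1F rose by 0.45 (SE 0.0750, adjusted p = 0.0119), from 10.28 ± 0.22 (SD, n = 3) in untreated cells to 10.68 ± 0.05 (SD, n = 3) and 10.79 ± 0.11 (SD, n = 3) after nonsense and YAP siRNA. The zinc exporter gene SLC30A1 had signals of 7.59, 7.63 and 7.70 on the untreated arrays, 7.90, 7.90 and 7.84 after nonsense siRNA, and 7.91, 7.94 and 7.90 after YAP siRNA. It rose by 0.26 (SE 0.0441, adjusted p = 0.0144) with a narrow spread in every group. In fits that left out 1 array, SLC30A1 did not pass without untreated replicate 1 or without untreated replicate 2. MT1JP, a transcribed metallothionein pseudogene outside the list, rose by 0.38 (SE 0.0449, adjusted p = 0.00151). Its untreated arrays lay at 7.81, 7.87 and 7.87, below all transfected arrays. The pseudogenes MT1IP and MT1DP rose by 0.35 (adjusted p = 0.0262) and 0.32 (adjusted p = 0.0241). These 3 were the only transcribed pseudogenes to pass among 393 measured, where 1.09% of all genes passed. The count is therefore not a result about pseudogenes. The metallothionein copies resemble each other so closely that their signals are uncertain as to the single gene, whereas SLC30A1 is not a copy of them.

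The other zinc list members did not pass. MT1H differed by 0.32 (adjusted p = 0.0547) and MT1X by 0.32 (adjusted p = 0.0583), SLC30A10 by 0.22, MT1B by 0.20, MTF1 by 0.18, MT1E by 0.15 and SLC39A10 by -0.10. At an unadjusted p under 0.05, 11 of the 12 members were higher and 0 lower, where 9.39% of all genes were higher and 9.21% lower. For the reasons given above, this is not a test of the list either. The mean level of the 12 genes was 8.95, 8.98 and 9.23 on the untreated arrays, 9.34, 9.29 and 9.38 after nonsense siRNA, and 9.44, 9.41 and 9.49 after YAP siRNA. The part of untreated replicate 3 can be read from the fits without it, where 8 of the 12 members rose, and without untreated replicate 1 or 2 the count was 2 in each. MT1M and MT1G passed in all 9 fits that left out 1 array, while MT2A was lost without untreated replicate 1 or 2 (highest adjusted p = 0.0630) and so was MT1F (highest adjusted p = 0.103). When every probe set was tested, 0 of the 12 passed, with adjusted p = 0.110 for MT1G and 0.129 for MT1M. The 2 dimmer probe sets assigned to MT2A differed by 0.50 and 0.21, with adjusted p = 0.129 and 0.266 in that test.

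**Figure D1:**
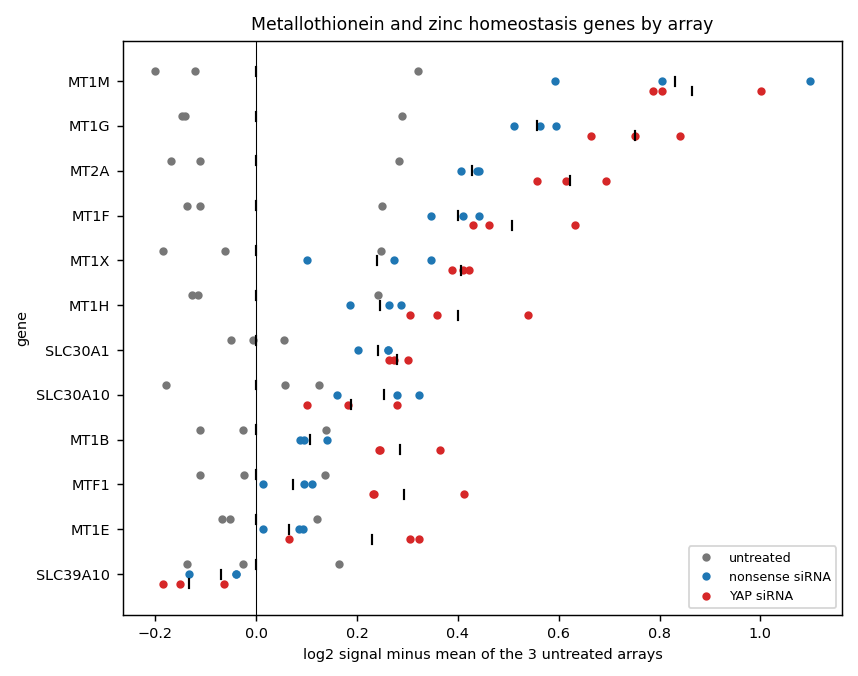
Each point is 1 array, plotted as its log2 signal minus the mean of the 3 untreated arrays, for the 12 measured metallothionein and zinc genes; short bars mark group means. The 6 transfected arrays lie right of all untreated arrays in MT1M, MT1G, MT2A, MT1F and SLC30A1, and untreated replicate 3 is the rightmost grey point in these 5 genes.

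The arrays were close to each other on the deposited scale. Array medians differed by at most 0.05, and every pair of arrays correlated across genes with a Pearson's r of 0.988 to 0.997, where genes do not count as independent replicates. The deviations from the group mean moved together on nonsense siRNA replicate 2 and YAP siRNA replicate 3 (r = 0.47 across genes), and on untreated replicate 3 and YAP siRNA replicate 3 (r = 0.34). Hepatocyte transcripts marked every array: ALB, the albumin gene, lay between 11.43 and 11.64 and AFP, the fetal albumin homologue, between 12.28 and 12.51. Of 8 measured hepatocyte markers, 12 leukocyte, 8 stromal and 5 endothelial markers, 0 passed by limma, and 2 of these 33 had an unadjusted p under 0.05. Among all genes 1.09% passed, and 9.39% were higher and 9.21% lower at an unadjusted p under 0.05. The mean level per array ranged from 10.90 to 11.04 for hepatocyte, 6.96 to 7.10 for leukocyte, 7.07 to 7.23 for stromal and 6.41 to 6.52 for endothelial markers. In bulk RNA, a change in the share of cells and a change in RNA per cell cannot be told apart.

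Over the whole table few genes passed, and their differences were small. Of 18417 genes 201 passed, which is 1.09%, with 129 higher and 72 lower in transfected cells. In 108 of the risen genes all 6 transfected arrays lay above all untreated arrays, and in 38 of the fallen genes all 6 lay below. These orders were found in 3.01% and 3.47% of all genes, and passing the test favours them. At an unadjusted p under 0.05 there were 3425 genes, and the number that passed the adjusted test ranged from 12 to 1029 when 1 array was left out. The median size was 0.27 for risen and -0.24 for fallen genes. At least 0.5 on the log2 scale was reached by 6 genes: MT1M, MT1G, CCL20 and MT2A rose, while YAP1 and TNFRSF21 fell. Centring each array on its median gave 128 higher and 38 lower genes. Protein-coding genes made up 195 of the 201, and 16902 of all 18417 genes compared. The others were the 3 metallothionein pseudogenes, the long noncoding RNAs AQP4-AS1 and MIR503HG, which fell by 0.23 and 0.24, and MIR193A, which fell by 0.22.

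Many of these calls differed in size or direction between the siRNAs. The difference of YAP siRNA minus nonsense siRNA is independent of the pooled difference by design. The tests of both are not independent, since they share 1 estimate of each gene's spread, and a small spread favours passing both. The test of YAP siRNA against nonsense siRNA passed in 73 of the 201 genes, or 36.3%, where 4.53% of all genes passed it. These were 35 of the risen and 38 of the fallen genes. In the other 128 the siRNAs were not called different, which does not show that they acted alike. In 92 of them, 67 risen and 25 fallen, the whole 95% interval of YAP siRNA minus nonsense siRNA was smaller, in either direction, than the pooled difference. Fitted separately against the untreated arrays, which both fits share, 113 genes passed for nonsense siRNA (0.614%) and 569 for YAP siRNA (3.09%). Of the 201 genes, 21 passed for each siRNA in the same direction, and UHMK1 for both in opposite directions. Another 142 passed for YAP siRNA only, 23 for nonsense siRNA only and 14 for neither. Both siRNAs lay on the same side of untreated in 186 of the 201 and on opposite sides in 15. The shared untreated arrays favour the same side.

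**Figure D2:**
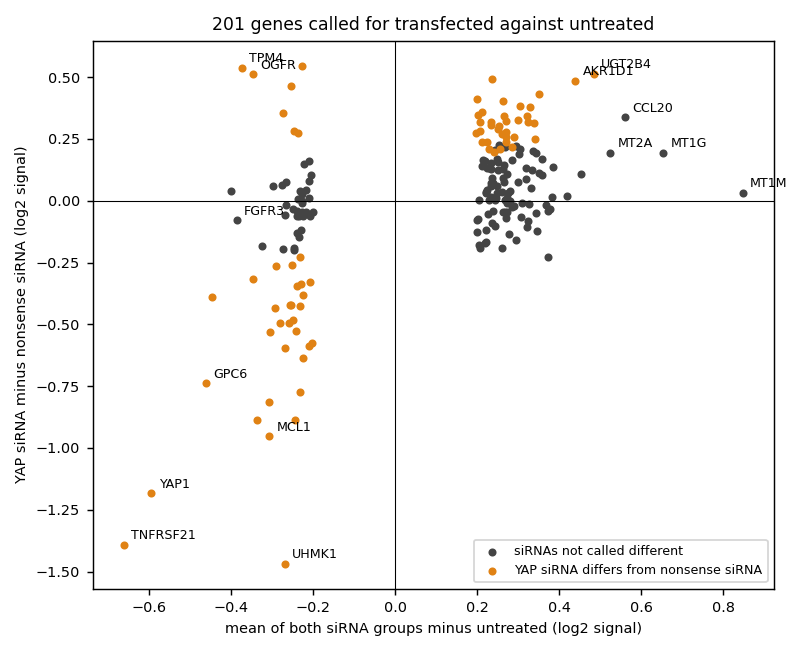
For the 201 genes that passed, the x axis gives the mean of both siRNA groups minus untreated and the y axis YAP siRNA minus nonsense siRNA, both as log2 signal. Orange points are the 73 genes in which the siRNAs also differed. MT1M, MT1G and MT2A lie far right, at 0.03, 0.20 and 0.19 on the y axis, while YAP1, TNFRSF21 and UHMK1 lie toward its lower end.

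YAP1, the gene targeted by 1 of the siRNAs, was among the 73 genes in which the siRNAs differed. Its signals were 8.78, 8.62 and 8.69 on the untreated arrays, 8.66, 8.75 and 8.68 after nonsense siRNA, and 7.54, 7.52 and 7.48 after YAP siRNA. The pooled difference of -0.59 (SE 0.0474, adjusted p = 1.77e-05) came from the YAP siRNA arrays, since nonsense siRNA and untreated arrays overlapped. TNFRSF21, a death receptor gene, had the same shape, with 9.96, 9.94 and 10.03 untreated, 10.01, 10.01 and 10.01 after nonsense siRNA, and 8.67, 8.59 and 8.60 after YAP siRNA. In UHMK1, a kinase gene, the siRNAs moved apart: untreated arrays lay at 8.87, 8.89 and 8.93, nonsense siRNA arrays at 9.36, 9.28 and 9.45, and YAP siRNA arrays at 7.95, 7.89 and 7.84. Its pooled difference of -0.27 (adjusted p = 0.0201) is therefore a mean of opposite differences. The anti-apoptotic gene MCL1 and PDCD4, which encodes an inhibitor of translation, lay on opposite sides of the untreated level as well, at 0.17 and 0.20 after nonsense siRNA and at -0.78 and -0.69 after YAP siRNA. The exact permutation test of 6 against 3 arrays, two-sided, gave p = 0.238 for YAP1, 0.405 for TNFRSF21, 0.524 for UHMK1, 0.476 for MCL1 and 0.476 for PDCD4. The smallest value that 84 arrangements allow is 0.0238, and genes named for having no overlap between transfected and untreated arrays reach it by that choice.

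Besides the metallothioneins, the largest rises among genes of at least the median signal whose transfected and untreated arrays did not overlap were in UGT2B4, AKR1D1, AKR1C2, IL6ST, TNRC6A, IPMK and HMGN2. TNRC6A had signals of 8.07, 7.88 and 7.83 on the untreated arrays, 8.36, 8.29 and 8.31 after nonsense siRNA, and 8.27, 8.35 and 8.24 after YAP siRNA. The siRNA groups overlapped each other but not the untreated arrays, and TNRC6A rose by 0.38 (SE 0.0553, adjusted p = 0.00638), with a difference between the siRNAs of -0.03 (95% interval -0.17 to 0.10). IL6ST, the signalling subunit shared by receptors of the interleukin 6 family, had signals of 9.75, 9.66 and 9.57 untreated, 10.16, 9.96 and 9.99 after nonsense siRNA, and 10.13, 10.09 and 9.93 after YAP siRNA. It rose by 0.38 (SE 0.0607, adjusted p = 0.00904), and the siRNAs differed by 0.02 (95% interval -0.13 to 0.16). HMGN2, which encodes a nucleosome-binding protein, rose by 0.37 (SE 0.0575, adjusted p = 0.00825), from 10.71 ± 0.04 (SD, n = 3) to 11.11 ± 0.13 (SD, n = 3) and 11.07 ± 0.08 (SD, n = 3) after nonsense and YAP siRNA. IPMK, an inositol polyphosphate kinase gene, rose by 0.37 (adjusted p = 0.0342). IL6ST was lost without untreated replicate 2 (adjusted p = 0.0703) and so was TNRC6A (0.0554), HMGN2 was lost without untreated replicate 1 or 2 (highest 0.0554), and IPMK was lost in 7 of 9 fits (highest 0.136, without untreated replicate 3).

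The steroid and bile acid enzymes among the risen genes differed in how the siRNAs compared. AKR1D1, the steroid reductase of bile acid synthesis, had signals of 7.61, 7.71 and 7.80 untreated, 7.88, 7.86 and 7.97 after nonsense siRNA, and 8.41, 8.42 and 8.33 after YAP siRNA. It rose by 0.44 (SE 0.0511, adjusted p = 0.00151) in a stepped order, with the YAP siRNA arrays above all others. UGT2B4, a glucuronosyltransferase gene, rose by 0.48 (SE 0.0669, adjusted p = 0.00544) from 7.55 ± 0.13 (SD, n = 3) to 7.77 ± 0.08 (SD, n = 3) and 8.29 ± 0.13 (SD, n = 3). Both genes were higher after YAP than after nonsense siRNA, AKR1D1 by 0.49 (adjusted p = 0.000145) and UGT2B4 by 0.51 (adjusted p = 0.000906). AKR1C2, a hydroxysteroid dehydrogenase gene, rose by 0.42 (SE 0.0799, adjusted p = 0.0220), and there the siRNAs differed by 0.02 (95% interval -0.18 to 0.21). AKR1D1 passed in all 9 fits that left out 1 array, UGT2B4 was lost without untreated replicate 1 (adjusted p = 0.0517), and AKR1C2 was lost in 4 of 9 (highest 0.135, without untreated replicate 1). AKR1C2 has close paralogs, of which AKR1C1 differed by 0.14 (adjusted p = 0.132) and AKR1C3 by -0.03.

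The largest falls in which the siRNAs were not called different were those of AMH and FGFR3. FGFR3, a fibroblast growth factor receptor gene, had signals of 9.0, 8.79 and 8.79 on the untreated arrays, 8.48, 8.44 and 8.62 after nonsense siRNA, and 8.43, 8.45 and 8.42 after YAP siRNA. The siRNA groups overlapped, all 6 of their arrays lay below the untreated ones, and FGFR3 fell by 0.39 (SE 0.0564, adjusted p = 0.00638), with a difference between the siRNAs of -0.08 (95% interval -0.22 to 0.06). AMH, which encodes anti-Müllerian hormone, had signals of 8.28, 7.85 and 7.95 untreated, 7.58, 7.63 and 7.61 after nonsense siRNA, and 7.56, 7.62 and 7.76 after YAP siRNA. AMH fell by 0.40 (SE 0.0752, adjusted p = 0.0205), and untreated replicate 1 was its highest array. TRIB3, a pseudokinase gene induced by the integrated stress response, had signals of 8.26, 8.22 and 8.22 untreated, 7.89, 8.03 and 7.79 after nonsense siRNA, and 7.97, 7.96 and 7.97 after YAP siRNA. It fell by 0.30 (SE 0.0513, adjusted p = 0.0146). CD7, a lymphocyte surface protein gene, fell by 0.27 (adjusted p = 0.0205) and PRAG1, a pseudokinase scaffold gene, by 0.27 (adjusted p = 0.0385). Without untreated replicate 1 the adjusted p was 0.0517 for FGFR3, 0.106 for AMH, 0.103 for TRIB3, 0.105 for CD7 and 0.212 for PRAG1. FGFR3 was lost in that fit only, TRIB3 in 2 of the 9 such fits, AMH in 4, CD7 in 6 and PRAG1 in 7.

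Among the other large falls the siRNAs differed in SLC7A1, OGFR and RIN2, and were not called different in TEAD2, FAM171A1, LETM1 and CYP26B1. SLC7A1, a cationic amino acid transporter gene, fell by 0.35 (adjusted p = 0.00638) and YAP siRNA minus nonsense siRNA was -0.32 (adjusted p = 0.00454). OGFR, the opioid growth factor receptor gene, had signals of 8.70, 8.67 and 8.66 untreated, 8.17, 8.06 and 8.0 after nonsense siRNA, and 8.53, 8.61 and 8.62 after YAP siRNA. It fell by 0.35 (adjusted p = 0.00544), and most of this lay in the nonsense siRNA arrays. RIN2, which encodes an activator of a small endosomal GTPase, fell by 0.25 (adjusted p = 0.0183) and was likewise lower after nonsense siRNA, the siRNAs differing by 0.28 (adjusted p = 0.00412). TEAD2, a transcription factor that partners YAP, fell by 0.33 (adjusted p = 0.0111), with the siRNAs differing by -0.18 (95% interval -0.31 to -0.05, adjusted p = 0.130). FAM171A1 fell by 0.25, LETM1, a mitochondrial inner membrane protein gene, fell by 0.25 and the retinoic acid hydroxylase gene CYP26B1 fell by 0.24. OGFR was lost without untreated replicate 1 (adjusted p = 0.0517), SLC7A1 and TEAD2 were lost without untreated replicate 1 or 2 (highest 0.0554 and 0.0807), and RIN2, FAM171A1, LETM1 and CYP26B1 were each lost in 5 of 9 fits, with the highest adjusted p without untreated replicate 1 (0.114, 0.154, 0.129 and 0.175).

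**Figure D3:**
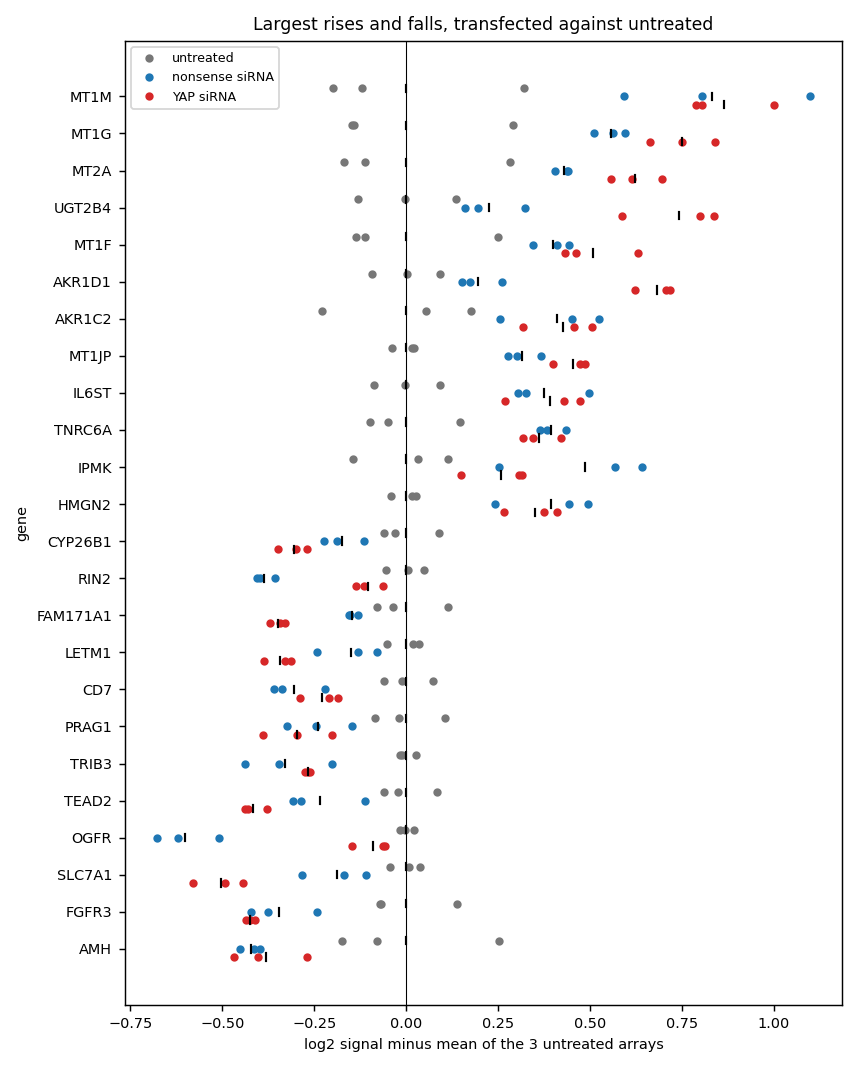
Each point is 1 array, plotted as log2 signal minus the mean of the 3 untreated arrays, for the 12 largest rises and 12 largest falls among genes that passed, had at least the median signal and did not overlap between transfected and untreated arrays; short bars are group means. In UGT2B4, AKR1D1 and SLC7A1 the YAP siRNA arrays lie farther from untreated than the nonsense siRNA arrays, in OGFR and RIN2 the nonsense siRNA arrays do, and in IL6ST, TNRC6A, HMGN2 and AMH the siRNA groups overlap.

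The lists for the cell's sensing of foreign RNA and for silencing held few genes that passed, where 1.09% of all genes did. Of 23 interferon-stimulated genes 1 rose and 0 fell, and the median difference was -0.02, the same as over all genes. The gene that rose was the chemokine gene CXCL10, with signals of 6.26, 6.28 and 6.22 on the untreated arrays, 6.37, 6.41 and 6.48 after nonsense siRNA, and 6.69, 6.73 and 6.80 after YAP siRNA. It rose by 0.33 (SE 0.0458, adjusted p = 0.00544) in every fit that left out 1 array, at a signal below the median over genes of 7.31, and the siRNAs differed by 0.32 (adjusted p = 0.00194). IFIT1, a sensor of foreign RNA ends and a standard interferon readout, differed by 0.12 (adjusted p = 0.213). Of 15 RNA sensors and adaptors 0 passed by limma, with 1 higher and 1 lower at an unadjusted p under 0.05. Of 13 RNA interference genes TNRC6A was the 1 that passed. AGO2, the Argonaute that cleaves its targets, did not pass, at 0.07 (adjusted p = 0.396): its signals were 8.27, 8.33 and 8.23 untreated, 8.53, 8.55 and 8.57 after nonsense siRNA, and 8.15, 8.17 and 8.11 after YAP siRNA.

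Among 15 NF-kB and inflammatory genes 2 rose and 0 fell, where 0.7% of all genes rose and 0.391% fell. CCL20, a chemokine gene, had signals of 8.52, 8.78 and 9.18 untreated, 9.27, 9.06 and 9.32 after nonsense siRNA, and 9.53, 9.47 and 9.67 after YAP siRNA. The groups overlapped through untreated replicate 3, and CCL20 rose by 0.56 (SE 0.104, adjusted p = 0.0205). TNFAIP3, which encodes the NF-kB inhibitor A20, rose by 0.23 (SE 0.0460, adjusted p = 0.0253), with all 6 transfected arrays above the untreated ones. The list's median was 0.05. Dropping 1 array cost CCL20 its call in 4 of 9 fits (adjusted p up to 0.123) and TNFAIP3 in 7 (up to 0.148), in each case highest without untreated replicate 1.

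The lists for lipid synthesis, endosomes and cell stress held 3 genes that passed, SREBF1, HSPA5 and TRIB3, where 1.09% of all genes passed. Of 19 fatty acid and lipid droplet genes SREBF1, a regulator of fatty acid synthesis, fell by 0.20 (SE 0.0442, adjusted p = 0.0410) and 0 rose. In the list of 18 genes for the unfolded protein and integrated stress responses, HSPA5, the endoplasmic reticulum chaperone BiP, rose by 0.28 (SE 0.0566, adjusted p = 0.0277), and TRIB3 fell as described. DDIT3, the stress factor CHOP, did not pass, at 0.08 (adjusted p = 0.493). Both SREBF1 and HSPA5 were lost in 7 of the 9 fits that dropped 1 array, at up to adjusted p = 0.208 and 0.174 without untreated replicate 1. By limma 0 genes passed of 13 for cholesterol synthesis and uptake, 20 for lysosomes and endosomes, 15 for autophagy, 13 for heat shock and chaperones and 13 for oxidative stress. At an unadjusted p under 0.05 these 5 lists had 0, 3, 3, 5 and 4 genes higher and 2, 1, 2, 0 and 0 lower, against 9.39% and 9.21% of all genes.

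The lists of apoptosis, p53, hypoxia and immediate early genes held 5 falls and 0 rises, where 0.391% of all genes fell and 0.7% rose. Of 15 BCL2 family genes 2 fell and 0 rose. They were MCL1 and BOK, an apoptosis effector gene that fell by 0.21 (SE 0.0443, adjusted p = 0.0368), with the siRNAs differing by -0.06 (95% interval -0.17 to 0.05). Of 14 p53 target genes TP53INP1 fell by 0.24 (adjusted p = 0.0391), though its nonsense siRNA arrays at 8.72, 8.54 and 8.68 overlapped the untreated ones at 8.59, 8.61 and 8.67 and its YAP siRNA arrays lay at 8.17, 8.16 and 8.02. CDKN1A, the p21 gene, did not pass, at -0.06 (adjusted p = 0.488). NDRG1, a growth-arrest gene and the 1 that passed of 16 in the hypoxia and glycolysis list, fell by 0.22 (adjusted p = 0.0328), again with nonsense siRNA and untreated arrays overlapping. Of 14 immediate early genes IER3 fell by 0.27 (SE 0.0566, adjusted p = 0.0307). These calls, other than MCL1, were each lost in 6 or 7 of the 9 fits that dropped 1 array. The adjusted p reached 0.190 for BOK, 0.129 for TP53INP1 and 0.141 for NDRG1 without untreated replicate 1, and 0.123 for IER3 without untreated replicate 2. MCL1 was lost without untreated replicate 1 (0.0638).

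In the lists around YAP, most genes that passed also differed between the siRNAs. Of 21 Hippo pathway components 3 fell and 0 rose, namely YAP1, TEAD2 and AMOTL2, and 6 of the 21 differed between the siRNAs. Of 22 YAP and TEAD target genes AMOTL2 and CCN1 fell and NT5E rose, and 9 of the 22 differed between the siRNAs. Over all genes 0.391% fell, 0.7% rose and 4.53% differed between the siRNAs. AMOTL2, which encodes an angiomotin that binds YAP, fell by 0.29 (adjusted p = 0.0107) and YAP siRNA minus nonsense siRNA was -0.43 (adjusted p = 0.000225). CCN1, a secreted matricellular protein gene, had signals of 9.21, 9.46 and 9.37 untreated, 9.03, 8.91 and 9.33 after nonsense siRNA, and 8.75, 8.71 and 8.65 after YAP siRNA. It fell by 0.45 (SE 0.0768, adjusted p = 0.0146), and nonsense siRNA replicate 3 lay among the untreated ones. NT5E, an ectonucleotidase gene, rose by 0.27 (adjusted p = 0.0253). Of 15 actin cytoskeleton genes the tropomyosin gene TPM4 fell by 0.37 (adjusted p = 0.0243), with nonsense siRNA arrays of 10.49, 10.28 and 10.42 below all others. AMOTL2 was lost without untreated replicate 1 or 2 and CCN1 without untreated replicate 2 or 3 (highest adjusted p = 0.0807 and 0.0991, without untreated replicate 2). NT5E was lost in 6 of 9 fits and TPM4 in 4 (highest 0.128 and 0.154, without untreated replicate 1).

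The largest lists held few genes that passed, as did the whole table at 1.09%. Of 480 numbered zinc finger genes, mostly transcription factors whose own zinc is structural, 2 rose and 3 fell. Over all genes 0.7% rose and 0.391% fell. The median of the 480 was 0.00. ZNF646 had signals of 7.32, 7.30 and 7.29 untreated, 7.04, 6.95 and 6.99 after nonsense siRNA, and 7.03, 7.05 and 7.09 after YAP siRNA, and fell by 0.27 (SE 0.0435, adjusted p = 0.00904). ZNF654 rose by 0.34 (adjusted p = 0.0279) and ZNF780B by 0.30 (adjusted p = 0.0259). ZNF646 was lost without untreated replicate 1 or 2 (highest adjusted p = 0.0684), ZNF654 in 5 of 9 fits (highest 0.175, without untreated replicate 1) and ZNF780B in 7 (highest 0.112, without untreated replicate 2). By limma 0 passed of 25 genes of DNA replication and G1/S, 24 of mitosis and G2/M, 57 histone genes, 60 ribosomal protein genes and 77 respiratory chain subunits, with 4, 6, 4, 7 and 12 higher and 1, 0, 3, 0 and 5 lower at an unadjusted p under 0.05, a threshold that 9.39% and 9.21% of all genes reached in these directions. The same was true of 192 small nucleolar and Cajal body RNAs, 36 proteasome subunits, 19 splicing SR protein genes and 17 ribosome biogenesis genes, with 6, 9, 4 and 4 higher and 5, 1, 0 and 1 lower. Of 19 drug metabolism genes UGT2B4 was the 1 that passed. Of 23 hepatocyte genes and 19 extracellular matrix genes 0 passed, with 4 and 5 higher and 3 and 2 lower at an unadjusted p under 0.05. ALB differed by 0.07 (adjusted p = 0.465) and AFP by 0.10 (adjusted p = 0.268).

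**Figure D4:**
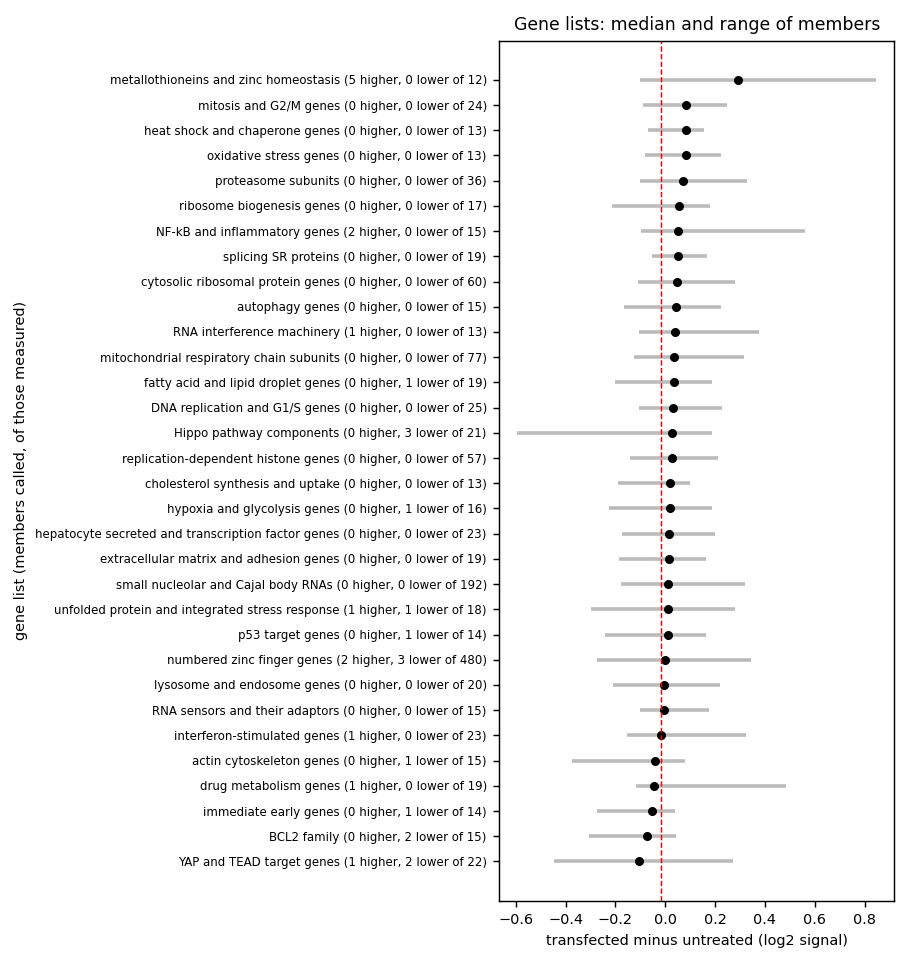
Dots give the median and grey lines the range of transfected minus untreated log2 signal over the measured members of each of 32 gene lists, with the numbers of members that passed in each direction; the dashed line is the median over all genes, -0.02. The metallothionein and zinc list has its median at 0.29, and its range reaches 0.85.

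How many genes passed depended strongly on single arrays. Leaving out untreated replicate 1 or 2 left 12 or 29 genes, and leaving out nonsense siRNA replicate 1, YAP siRNA replicate 1 or YAP siRNA replicate 2 left 59, 59 or 55. Without untreated replicate 3 there were 92 and without nonsense siRNA replicate 3 there were 119. With nonsense siRNA replicate 2 left out the count was 1029 and without YAP siRNA replicate 3 it was 624, and all 201 genes were among those in each of these fits. Without these 2 and untreated replicate 3 together 2240 genes passed, again with all 201. Of the 45 named genes that passed, 35 were lost without untreated replicate 1, 33 without untreated replicate 2, 15 without untreated replicate 3, 21 and 10 when nonsense siRNA replicate 1 or 3 was dropped, and 22 and 21 without YAP siRNA replicate 1 and 2. Genes that passed in every one of the 9 fits were AKR1D1, CXCL10, GPC6, MT1G, MT1JP, MT1M, TNFRSF21 and YAP1. GPC6, which encodes a cell surface glypican, fell by 0.46 (adjusted p = 0.00262), and this lay in the YAP siRNA arrays, the siRNAs differing by -0.74 (adjusted p = 1.04e-05). When only 2 groups, all transfected against untreated, were fitted, so that differences between the siRNAs counted as spread, 4 genes passed: MT1G, MT1JP, MT1M and TNRC6A.

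**Figure D5:**
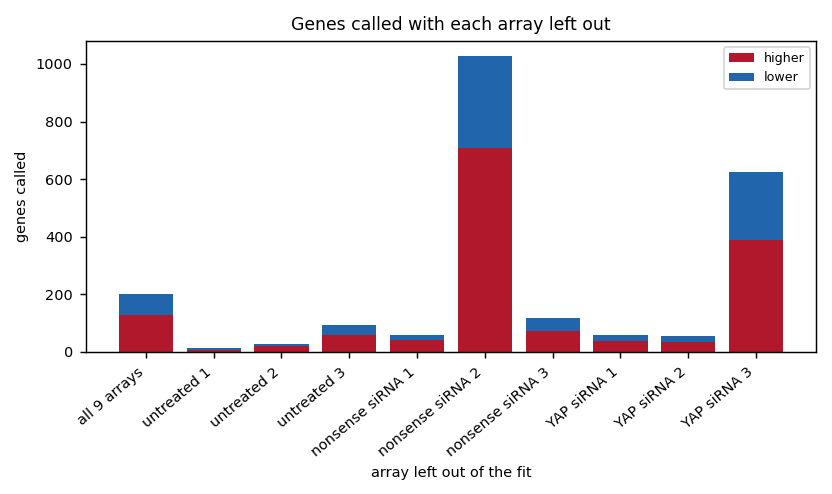
Bars give the number of genes that passed for transfected against untreated with all 9 arrays and with each array left out, divided into higher and lower. The count is 12 without untreated replicate 1 and 1029 without nonsense siRNA replicate 2.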

How the data were processed

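The values analysed were log2 signals per probe set as deposited by the authors. That they are log2 follows from their range; how the authors corrected, summarised and normalized them is not given in the sources used here. RNA was isolated with Nucleospin columns and labelled as biotinylated cRNA, per the labels' protocols. Gene names came from the supplied array annotation: 21214 were listed, 19460 with 1 gene and 1754 with several. Of several probe sets of a gene (769 genes) the one with the highest mean was used. No scaling, filter or pseudocount was applied.

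The 3 group means were estimated in one fit of all 9 arrays (limma 3.58.1 under R 4.3.3, with lmFit and eBayes, two-sided tests). The contrast was the mean of both siRNA groups minus untreated. Benjamini-Hochberg adjustment ran over 18417 genes, with a threshold of 0.05, and every adjusted p is from limma. Intervals of 95% are from the same fit. The script was tested on simulated data. Promoters came from RefSeq (GRCh38.p14). Plots used matplotlib 3.10.9 and pandas 2.3.3 under Python 3.11.15.

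The comparison, the 32 gene lists (1348 of 1384 genes measured) and the tests were chosen with earlier results of these data known. The rule named the 12 largest rises and 12 largest falls that passed, had at least the median signal and did not overlap between transfected and untreated arrays, up to 3 genes per list that passed, the 5 passing genes with the largest difference between the siRNAs, and genes given whatever their result (YAP1, IFIT1, CXCL10, DDIT3, CDKN1A, AGO2, ALB, AFP and MT2A; others of this kind are not reported here). Other zinc list members, the metallothionein pseudogenes, the AKR1C paralogs, GPC6, AQP4-AS1, MIR503HG and MIR193A were added after their values were seen. Alternatives were other scalings, signal filters, probe set rules, variance models, array weights, a fit of 2 groups, the replicate block, a small RNA covariate, stricter thresholds and leaving out arrays.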

Additional observations from a re-analysis of the deposited data

Results flagged for a closer look

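In 17 of the named genes that passed for both siRNA groups against untreated cells, YAP siRNA and nonsense siRNA also differed from each other by limma's test of that difference over all genes. The values that follow are YAP siRNA minus nonsense siRNA on the log2 scale. Among genes whose pooled value was higher, the difference was 0.51 for UGT2B4, 0.49 for AKR1D1, 0.32 for CXCL10 and 0.24 for NT5E, so all 4 were higher after YAP siRNA. Among genes whose pooled value was lower, 10 were lower after YAP siRNA: UHMK1 at -1.47, TNFRSF21 at -1.39, YAP1 at -1.18, MCL1 at -0.95, PDCD4 at -0.89, TP53INP1 at -0.53, AMOTL2 at -0.43, CCN1 at -0.39, NDRG1 at -0.38 and SLC7A1 at -0.32. In the other 3, the tropomyosin gene TPM4 at 0.54, OGFR at 0.51 and RIN2 at 0.28, it was nonsense siRNA that lay lower. The adjusted p of the difference ranged from 3.99e-10 in TNFRSF21 to 0.0384 in NT5E.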

How the results depend on the processing

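Counts are given in the order all genes that passed, higher, lower, without overlap between transfected and untreated arrays, also different between the siRNAs, and risen members of the zinc list; as reported they were 201, 129, 72, 146, 73 and 5. Array weights, lowest for replicate 2 of nonsense siRNA and for replicate 3 of YAP siRNA and of untreated cells, gave 2040, 1239, 801, 693, 505 and 10, and leaving out these 3 arrays together gave 2240, 1434, 806, 2033, 377 and 9. Testing all probe sets gave 3, 1, 2, 1, 2 and 0, and a fit of 2 groups, in which the difference between siRNAs counts as spread, gave 4, 4, 0, 4, 0 and 2. An adjusted p under 0.01 gave 26, 17, 9, 20, 12 and 3, and a size of at least 0.3 gave 54, 40, 14, 38, 21 and 4. Leaving out 1 array gave 12 to 1029, 7 to 708, 5 to 321, 9 to 646, 6 to 250 and 2 to 8. Median centring gave 38 lower genes, and the small RNA level as a covariate gave 8 risen zinc list members. Apart from construction (other arrays, tests or thresholds), the cause was not tested. Quantile normalization, signal filters, the mean of a gene's probe sets and another variance model kept every count within 1.5 times of the reported one. No named gene changed direction under any alternative run.

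The replicate numbers were not taken to pair the samples, since the deviations of same-numbered arrays correlated above 0.1 in 3 of 9 pairs (r from -0.34 to 0.34), although 5 of 9 arrays matched best with an array of their own number. With the replicate block 129 genes passed, 41 of them lower and 92 without overlap, and 6 zinc list members rose. It ended the call of ZNF654, TNFAIP3, SREBF1, BOK, NDRG1, CYP26B1, TP53INP1, PDCD4 and PRAG1, at adjusted p from 0.0510 to 0.0655.

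No fit separates the lipid reagent, the siRNA duplex and handling, since each transfected group had all of them. Nor does a fit separate any difference in culture time, since no time of lysis is given here for the untreated cells. Metallothionein copies are close in sequence. With 3 untreated arrays in the baseline, each of them moves every difference. Differences under about 0.2 rarely passed, so genes that did not pass are not shown to be unchanged.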
